A study of Homo sapiens with 4 samples.

Results

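Serine/threonine protein phosphatases remove phosphate from serine and threonine residues. In the PPP family a small set of catalytic subunits gains its substrates and places of action from a much larger set of regulatory subunits, which act as scaffolds, targeting subunits or inhibitors. The metal-dependent PPM1 phosphatases are mostly single-subunit enzymes. N7-methylguanosine (m7G) is the base of the mRNA cap and has also been reported inside mRNAs, where it can be pulled down with an antibody.

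The genes described here are those named in either of 2 m7G peak lists with a symbol that begins PPP1 to PPP6 followed by C or R, or PPM1 followed by a letter. This rule, which uses names and no measured value, found 32 of 3355 peaks in replicate 1 and 55 of 4747 peaks in replicate 2. These peaks lie in 41 of the 3769 genes that had a peak in either list. Of these genes 15 are catalytic (9 PPP catalytic subunits and 6 PPM1 phosphatases) and 26 are regulatory. The catalytic genes held 13 peaks in replicate 1 and 14 in replicate 2, and the regulatory genes held 19 and 41.

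The samples were untreated HepG2 cells, a hepatocellular carcinoma line. The series holds 2 m7G immunoprecipitation (IP) samples of poly(A) RNA and 2 input samples. Each deposited list belongs to 1 IP sample, and input values were not analysed here. A peak is a stretch of mRNA that the authors called as enriched, and its fold enrichment, called fold below, is the authors' own value for that peak. The lists hold no read numbers, so a single fold carries no interval. The labels do not say that the IP samples came from separate cultures, so the spread between the lists may be technical. Of 20 hepatocyte-lineage genes, 11 had a peak in each list, against 2 of 6 immune markers and 1 of 6 endothelial and stellate markers. Over all protein-coding genes, 18.7% had a peak in either list. Peaks are not expression, so these counts check the labelled cell type only weakly.

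Start windows were the first 50 bases after an annotated start in the reference used here. Peaks of 6 phosphatase genes ran into such a window in both lists. Bases 21 to 50 after that start are shown for each, a part of the window chosen for display. Sequence beyond the first 50 bases could not be read from the reference used here. Capitals mark bases under a peak of either list. The sequences are from RefSeq (GRCh38.p14), written 5′ to 3′ on the gene's strand.
PPP4C (chr16:30076014-30076043, plus strand): CGGCGGCGGCGGCGGCGGTCGAAAGCGGAG
PPP1CC (chr12:110742842-110742871, minus strand): GAGAGAAGGAGGAAGTAGGGAGCGGGGTGG
PPP6C (chr9:125189754-125189783, minus strand): CGCCGCTGCCGCCGCCGCTGCTACAGCCGC
PPP1R14B (chr11:64246894-64246923, minus strand): GCGGCTGCAGCTCGGGCGGCGGCCGCGGGG
PPP1R12C (chr19:55117588-55117617, minus strand): gcgggcgggcgggcgggTGGTGGCGGCGGT
PPP1R18 (chr6:30686596-30686625, minus strand): GCTGCCGCCGCCCTCCTTTCCCCTCTTCCC
The peaks covered all 50 bases of PPP4C in both lists. They covered 48 bases in replicate 1 and 50 in replicate 2 for PPP1CC, 36 in each for PPP6C, 48 in each for PPP1R14B, 13 in each for PPP1R12C, and 46 and 50 for PPP1R18. Among catalytic genes, G made up 56% of the 50 bases in PPP4C, 50% in PPP1CC and 28% in PPP6C. Among regulatory genes it made up 58% in PPP1R12C, 48% in PPP1R14B and 24% in PPP1R18. Windows of PPP1R35 in replicate 1, and of PPP2CA, PPP2R5D, PPP4R1 and PPP6R2 in replicate 2, were reached in that list alone. Counted from the 5′ end of the gene span, peaks of PPP2CB in both lists and of PPP3CB in replicate 2 also reached the first 50 bases. Neither gene is among the windows described here. The median G content of the 11 phosphatase windows with a peak was 48%, compared with 42% for all 985 start windows with a peak and 34% for the 22199 start windows of protein-coding genes. The median GC content was 76%, 74% and 64% in the same order, so in GC the phosphatase windows were close to other windows with a peak. These are descriptions of the bases and were not tested. Neighbouring windows of GC-rich starts may share this composition, which was not examined.

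Catalytic and regulatory genes were first compared by presence in the lists. Of the 41 phosphatase genes, 20 had peaks in both lists (48.8%, 95% Wilson interval 34.3 to 63.5%), close to the 51.7% of all genes with a peak in either list. Catalytic genes numbered 9 of 15 in both lists (60%, 35.7 to 80.2%) and regulatory genes 11 of 26 (42.3%, 25.5 to 61.1%), and the intervals, which cover counting error only, overlap. Replicate 1 held 12 catalytic and 12 regulatory genes, whereas replicate 2 held 12 catalytic and 25 regulatory genes. Of the 17 genes found in replicate 2 alone, 3 were catalytic and 14 regulatory, and of the 4 found in replicate 1 alone, 3 were catalytic and 1 regulatory. This split was not tested. Over all genes, 1258 were found in replicate 2 alone and 564 in replicate 1 alone.

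The RefSeq table names 89 protein-coding genes that meet the rule, and 40 of them had a peak; the 41st gene is listed under an older symbol, PPP2R4. Among these 89, a peak was found for 9 of the 11 PPP catalytic genes (81.8%, 52.3 to 94.9%), 6 of the 12 PPM1 genes (50%, 25.4 to 74.6%) and 25 of the 66 regulatory genes (37.9%, 27.1 to 49.9%). All protein-coding genes gave 18.7%. The catalytic genes without a peak were PPP1CB, PPP3CC, PPM1A, PPM1E, PPM1J, PPM1L, PPM1M and PPM1N. Both PP2A scaffold genes, PPP2R1A and PPP2R1B, were also without one, as were PPP1R7, PPP1R8, PPP1R10 and PPP1R12A among PP1 regulators. The lists carry no expression values, and a lack of m7G cannot be told apart from a lack of mRNA.

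**Figure D1:**
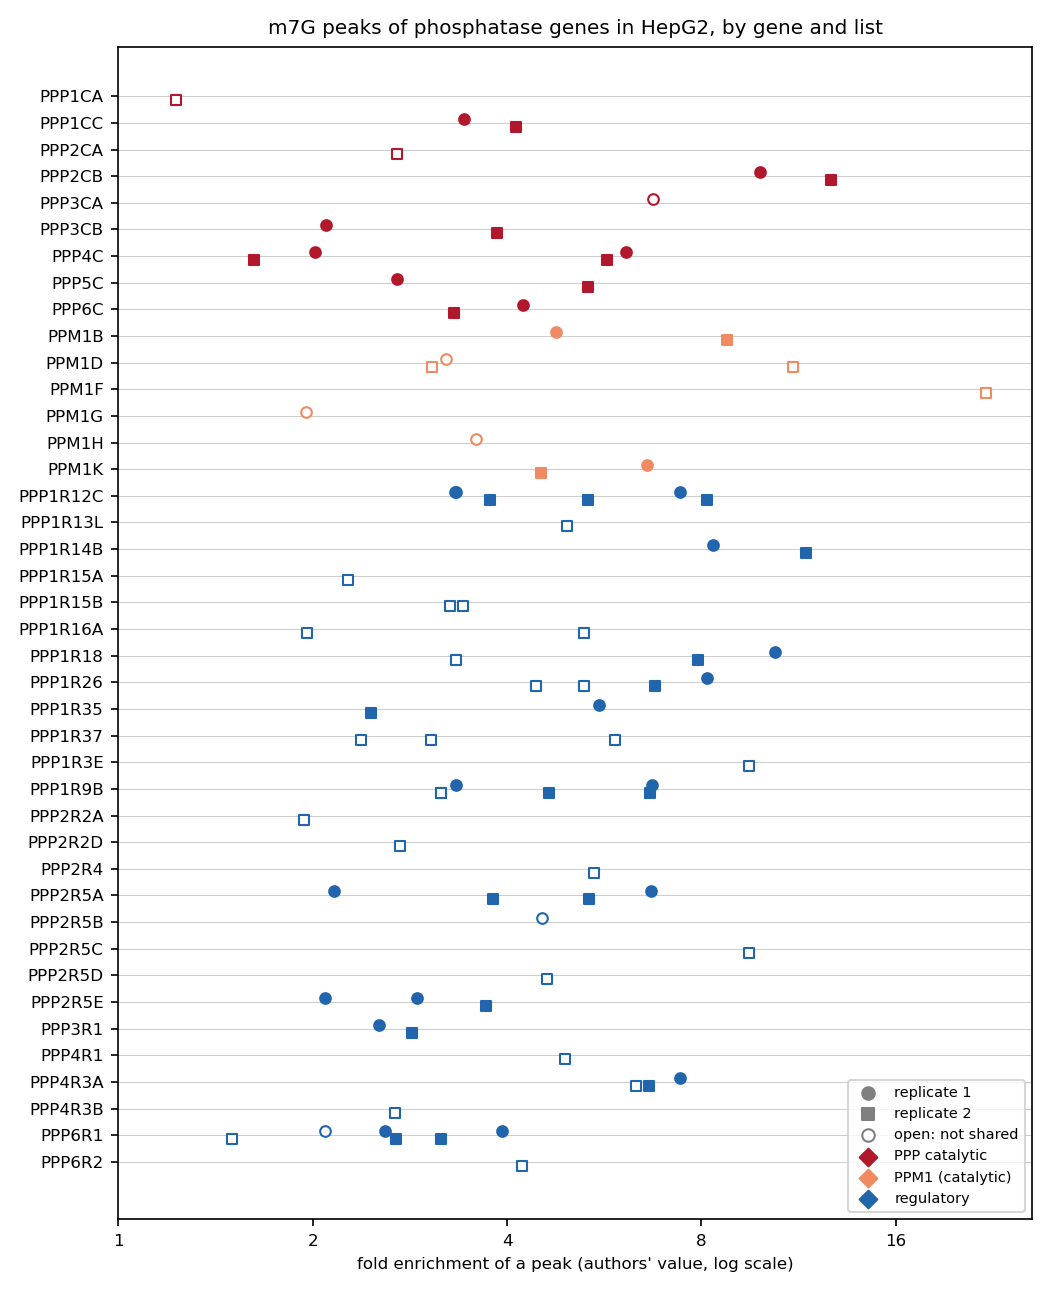
Fold enrichment (log scale) of every peak of the 41 phosphatase genes, with a row per gene; circles are replicate 1 and squares replicate 2. Filled points are shared, that is, overlap the other list over 50% or more of the shorter peak. The highest point is PPM1F at 22.1 in replicate 2, which is open, and the highest filled point is PPP2CB at 12.7.

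Among catalytic subunits, PPP2CB had the shared peak of highest fold in each list. It encodes the beta isoform of the PP2A catalytic subunit. Its fold was 9.85 in replicate 1 and 12.7 in replicate 2 (mean 11.3 ± 2.02, SD, n = 2), with a -log10 p of 34.8 and 35.9. These p-values ranked 196th of 3355 and 178th of 4747 peaks. PPP2CA, which encodes the alpha isoform, had a single peak, in replicate 2, with a fold of 2.70 and a midpoint 126 nt from the 5′ end. The coding sequences of PPP2CA and PPP2CB are closely related, as are those of PPP1CA and PPP1CC, and reads of near-identical stretches cannot be told apart from peak lists.

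PP1, the other major cellular phosphatase, had a recurrent peak in PPP1CC, the gamma isoform. Its folds were 3.43 and 4.13 in replicates 1 and 2, and the peaks, of 210 and 239 nt, had 1 edge in common. PPP1CA, the alpha isoform, had a 60 nt peak with a fold of 1.23 in replicate 2, the lowest fold of any phosphatase peak. The 2 isoforms thus differed in that PPP1CC was in both lists near the 5′ end and PPP1CA in 1 list, 351 nt from the 3′ end.

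PPP4C, the catalytic subunit of PP4, was the only catalytic gene with more than 1 shared peak. Its spliced 5′ peak on chromosome 16 began at 30075976 in both lists and ended at 30076457 in replicate 1 and 30081270 in replicate 2. The fold there was 6.12 in replicate 1 and 5.71 in replicate 2, and the -log10 p was 36.7 and 28.8, in replicate 1 above that of PPP2CB and in replicate 2 below it. A second peak near the 3′ end had lower folds of 2.02 and 1.62. The 5′ peak was thus the higher of the pair in each list.

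Of the calcineurin (PP2B) catalytic genes, PPP3CB had a spliced 5′ peak in both lists, with folds of 2.10 and 3.86. PPP3CA had a peak in replicate 1 alone, with a fold of 6.74 and a -log10 p of 4.58. PPP5C, a phosphatase with tetratricopeptide repeats that binds HSP90, had folds of 2.70 and 5.34 at a peak 341 nt from the 3′ end in replicate 1. PPP6C, the catalytic subunit of PP6, had folds of 4.24 and 3.31 at a short peak at the 5′ end, 91 nt long in replicate 1 and 61 nt in replicate 2. Its -log10 FDR of 1.52 in replicate 2 was the weakest of any phosphatase peak.

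Of the 6 PPM1 phosphatases, 3 were in both lists and 2 had a shared peak. PPM1B, which acts on kinases of inflammatory signalling, had folds of 4.76 and 8.76, and its peak was unspliced in replicate 1 and joined a second block in replicate 2. PPM1K, the mitochondrial phosphatase that activates branched-chain ketoacid dehydrogenase, had a peak with identical edges on chromosome 4 from 88260035 to 88260125, with folds of 6.60 and 4.52. PPM1D, a p53-induced phosphatase also called WIP1, was the only gene present in both lists without a shared peak. Its peaks with folds of 3.22 in replicate 1 and 3.06 in replicate 2 lay 28 nt apart. Replicate 2 held a further PPM1D peak with a fold of 11.1 and a -log10 p of 3.97. PPM1F had 1 peak in replicate 2, whose fold of 22.1 ranked 69th of that list while its -log10 p was 4.83. PPM1G (fold 1.95) and PPM1H (fold 3.58) had peaks in replicate 1 alone.

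Among the 41 PP1 regulatory genes that RefSeq names, 12 had a peak (29.3%, 17.6 to 44.5%), against 18.7% of all protein-coding genes. Of these 12, 6 were in both lists (50%, 25.4 to 74.6%), close to the 51.7% of all genes with a peak in either list. PPP1R12C, a member of the myosin phosphatase targeting family, had 3 peaks in each list, and all 3 were shared. The 5′ peak on chromosome 19, which ended at 55117600 in both lists, had folds of 7.42 and 5.34. A peak near the 3′ end had folds of 3.33 and 3.76. The third was spliced and differed more, with a fold of 3.32 over 61 nt and 2 blocks in replicate 1 and of 8.17 over 329 nt and 5 blocks in replicate 2.

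PPP1R14B, a small inhibitor of PP1, had a peak with identical edges in both lists, on chromosome 11 from 64246493 to 64246941. Its folds of 8.35 and 11.6 (mean 9.98 ± 2.30, SD, n = 2) were the highest of the regulatory genes in the mean, ahead of PPP1R18. PPP1R18, which encodes the actin-associated protein phostensin, had folds of 10.4 and 7.91. The -log10 p of these peaks was 4.06 and 4.76, which ranked 2542nd and 2611th in the lists. Midpoints of the PPP1R18 peaks lay 1780 and 1750 nt inside the gene span, but 34 and 4 nt from a second annotated start. PPP1R9B, the scaffold spinophilin, had 2 shared peaks, with folds of 6.70 and 6.65 at a peak of 746 and 597 nt and of 3.34 and 4.65 closer to the 5′ end. Replicate 2 added 2 short peaks in this gene, each with a fold of 3.16. PPP1R26 had folds of 8.16 and 6.78 at its shared peak, whose midpoint was 8691 nt from the 5′ end in both lists. PPP1R35, a centriole protein, had 5.56 and 2.46, the largest drop of any shared phosphatase peak.

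The other PP1 regulators with a peak were found in replicate 2 alone. They included PPP1R15A and PPP1R15B, which direct PP1 to the translation factor eIF2-alpha. PPP1R15A (GADD34) had a fold of 2.27 with a -log10 p of 14.8, the smallest p among phosphatase peaks of replicate 2 that were not shared. PPP1R15B had folds of 3.42 and 3.26 at its 2 peaks. PPP1R37 had 3 peaks with folds from 2.38 to 5.87 in the last 1757 nt of its span. PPP1R13L, the p53 inhibitor iASPP, had a fold of 4.95, and the membrane-anchored PPP1R16A had 5.27 and 1.96. PPP1R3E, a glycogen-targeting subunit, had a fold of 9.49 at a 61 nt peak with a -log10 p of 3.64.

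Of the PP2A regulators, all 5 genes of the B56 subfamily, PPP2R5A to PPP2R5E, had a peak, 2 of them in both lists. Over all protein-coding genes, 18.7% had a peak in either list, and 51.7% of all genes with a peak were in both lists. PPP2R5A had 2 shared peaks near the 5′ end, the first with folds of 6.68 and 5.35 and the second with 2.16 and 3.80. PPP2R5E had 2 peaks in replicate 1, with folds of 2.09 and 2.90, and both overlapped a single spliced peak of replicate 2 with a fold of 3.71. PPP2R5B was in replicate 1 alone (fold 4.53), and PPP2R5C (9.49) and PPP2R5D (4.62) were in replicate 2 alone. The B55 subfamily had peaks in replicate 2 alone, with folds of 1.94 in PPP2R2A and 2.73 in PPP2R2D. Its other genes, PPP2R2B and PPP2R2C, had no peak, and neither did PPP2R3A, PPP2R3B and PPP2R3C of a further PP2A subfamily. PPP2R4, now named PTPA, which encodes an activator of PP2A, had a fold of 5.45 in replicate 2.

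PPP3R1, the calcium-binding subunit of calcineurin, had a shared peak with folds of 2.53 and 2.85, and a -log10 p of 18.7 and 24.9. The p-values thus ranked it 379th and 270th in the lists, while its folds ranked 2442nd and 3354th. For PP4, PPP4R3A had folds of 7.42 and 6.64 at a shared peak of 420 and 509 nt, and replicate 2 added a peak of 6.33 at the 5′ end. PPP4R1 (4.92) and PPP4R3B (2.68) were in replicate 2 alone. For PP6, PPP6R1 had 2 shared peaks, with folds of 3.93 and 3.16 and of 2.59 and 2.69, the second with identical edges across an intron on chromosome 19 from 55232176 to 55236726. PPP6R2 had a fold of 4.22 in replicate 2. Within each of PP1, PP2A, calcineurin, PP4 and PP6, at least 1 catalytic and at least 1 regulatory gene had a shared peak. For calcineurin, PP4 and PP6 this rests on 1 gene of each class. A shared peak was found in 46.3% of the phosphatase genes, close to the 45.3% of all genes with a peak in either list.

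At the level of sites, a peak was called shared when the other list had one in that gene, on its strand, and the overlap took in 50% or more of the shorter. A shared peak was found in 19 of the 41 genes (46.3%, 32.1 to 61.3%), against 45.3% of all genes. Of replicate 1 peaks, 26 of 32 phosphatase peaks were shared (81.2%, 64.7 to 91.1%), against 65.1% of all peaks. Of replicate 2 peaks, 25 of 55 were shared (45.5%, 33.0 to 58.5%), against 45.4%. Catalytic peaks were shared in 9 of 13 and 9 of 14 cases in replicates 1 and 2, and regulatory peaks in 17 of 19 and 16 of 41. The catalytic counts combine 7 of 8 and 7 of 9 peaks of PPP catalytic genes (87.5% and 77.8%) with 2 of 5 PPM1 peaks in each list. The regulatory shares were 89.5% in replicate 1 and 39.0% in replicate 2. In replicate 1 the regulatory share was thus close to that of PPP catalytic genes and above that of PPM1 genes, and in replicate 2 it was below that of PPP catalytic genes and close to that of PPM1 genes. Shared peaks had smaller p-values and were longer. In replicate 2 the median -log10 p was 9.46 for the 25 shared phosphatase peaks and 4.03 for the 30 others, and the median length was 240 and 150 nt. Over all peaks of that list the medians were 7.93 and 4.20 for -log10 p and 210 and 120 nt for length.

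**Figure D2:**
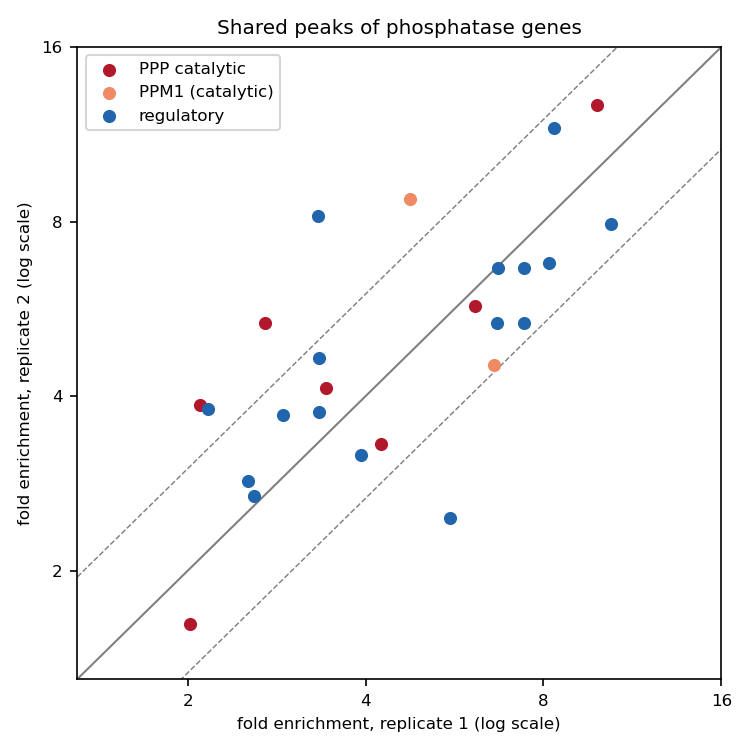
Fold enrichment of the 25 shared phosphatase peaks in replicate 1 (x axis) and replicate 2 (y axis), both on log scales; the solid line is equality and the dashed lines are 1.5 times apart. Of the points, 19 lie between the dashed lines, and the regulatory genes PPP1R12C and PPP1R35 lie farthest outside.

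Folds at the 25 matched shared peaks were close between the lists. Of these, 19 (76.0%, 56.6 to 88.5%) were within 1.5 times of each other, against 72.7% of all shared peaks. Among them were 6 of 9 catalytic peaks (66.7%, 35.4 to 87.9%) and 13 of 16 regulatory peaks (81.2%, 57.0 to 93.4%). The 2 peaks more than 2 times apart were the spliced peak of PPP1R12C and the peak of PPP1R35, and both are regulatory. Across the 25 peaks, folds ranked together with a Spearman's rho of 0.68, against 0.80 over the 2128 shared peaks of all genes. Peaks of a gene are not independent, and an input used for both lists would be shared by all points.

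Taken over all peaks, the median fold did not separate the classes. In replicate 1 it was 3.58 for the 13 catalytic peaks (range 1.95 to 9.85) and 3.93 for the 19 regulatory peaks (2.09 to 10.4). In replicate 2 it was 4.33 for the 14 catalytic peaks (1.23 to 22.1) and 4.22 for the 41 regulatory peaks (1.5 to 11.6). The catalytic minus regulatory difference was -0.35 in replicate 1 and 0.105 in replicate 2 (mean -0.12 ± 0.32, SD, n = 2), so its sign changed with the list and its mean was smaller than the spread. Taking 1 peak per gene, that of smallest p, gave a mean difference of -0.955, with the regulatory median higher. The result over all peaks thus depends on how genes with several peaks are counted. All 32 phosphatase peaks of replicate 1 had a median of 3.76, and all 55 of replicate 2 had 4.22, against 3.71 and 3.87 over all peaks. With 2 lists and peaks that are not replicates, no test was made.

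The position of the peaks along the genes was then described from the midpoint of each peak. Within 200 nt of the 5′ end of the gene span lay 6 of 32 phosphatase peaks in replicate 1 (18.8%, 8.89 to 35.3%) and 10 of 55 in replicate 2 (18.2%, 10.2 to 30.3%), against 27.4% and 21.6% of all peaks. The mean was 18.5% ± 0.40 (SD, n = 2). Catalytic genes had 4 of 13 and 4 of 14 peaks there, and regulatory genes 2 of 19 and 6 of 41. The share was higher for catalytic genes in both lists (30.8% and 28.6%, against 10.5% and 14.6% for regulatory genes), with Wilson intervals that overlap in each list. PPP catalytic genes had 3 of 8 and 4 of 9 peaks there (37.5% and 44.4%), and PPM1 genes 1 of 5 and 0 of 5, the last with a Wilson upper limit of 43.4%. Counted from the nearest annotated start, the regulatory share was 21.1% and 24.4%, and the catalytic share was as before. The catalytic genes with a 5′-end peak in both lists were PPP1CC, PPP3CB and PPP6C, and the regulatory genes were PPP1R12C and PPP2R5A.

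**Figure D3:**
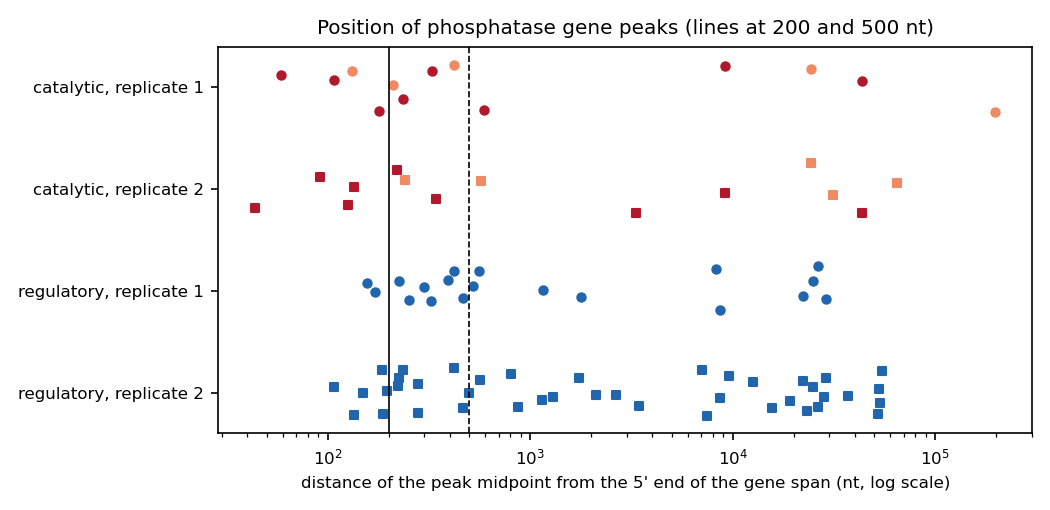
Distance of each peak's midpoint from the 5′ end of the gene span (nt, log scale) by class and list, with lines at 200 nt (solid) and 500 nt (dashed); red points are PPP catalytic, orange PPM1 and blue regulatory genes. In replicate 1, 8 of 13 catalytic and 9 of 19 regulatory peaks lie left of the dashed line, and in replicate 2, 7 of 14 and 14 of 41.

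A group of phosphatase peaks lay just beyond that window. Within 500 nt of the 5′ end the phosphatase share was 17 of 32 (53.1%, 36.4 to 69.1%) and 21 of 55 (38.2%, 26.5 to 51.4%), against 39.3% and 33.8% of all peaks. Peaks between 200 and 500 nt made up 11 of 32 and 11 of 55, or 34.4% (20.4 to 51.7%) and 20% (11.6 to 32.4%), against 12.0% and 12.2% of all peaks. The interval of replicate 2 includes the share of all peaks. This inner window was chosen after the distances were seen, so neither list's interval can serve as a test of an excess. In both lists it held peaks of the catalytic genes PPM1B (211 and 241 nt), PPP2CB (236 and 221 nt) and PPP4C (329 and 344 nt). It also held the regulatory genes PPP1R14B (226 nt in both), PPP3R1 (252 and 237 nt), PPP1R9B (324 and 279 nt), PPP1R35 (392 and 467 nt) and PPP2R5E (301 and 466 nt in replicate 1 and 421 nt in replicate 2). PPM1D and PPP6R1 were there in replicate 1 alone, and PPP1R3E, PPP2R2A and PPP2R5A in replicate 2 alone. The 449 nt peak of PPP1R14B and the spliced peak of PPP4C reached back to the first bases after the start, as the sequences above show. Their distances of over 200 nt come from the length of the peak in PPP1R14B and from an intron before the midpoint in PPP4C.

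Some of the genes have more than 1 annotated start. Counted from the nearest start listed by RefSeq, 8 of 32 phosphatase peaks in replicate 1 (25%) and 14 of 55 in replicate 2 (25.5%) lay within 200 nt, against 30.4% and 24.0% of all peaks. The added peaks were those of PPP1R18 in both lists, PPP1R35 in replicate 1, and PPP1R26, PPP4R1 and PPP6R2 in replicate 2. All 6 are peaks of regulatory genes, so the catalytic counts stayed at 4 of 13 and 4 of 14 while the regulatory counts became 4 of 19 and 10 of 41. At the 3′ end, 0 of 32 and 0 of 55 phosphatase peaks lay within 200 nt, against 3.43% and 3.46% of all peaks. The nearest were PPP1R15A at 205 nt and PPP4C at 237 nt, both in replicate 2. A count of 0 of 32 or of 55 has a Wilson upper limit of 10.7% or 6.53%.

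**Figure D4:**
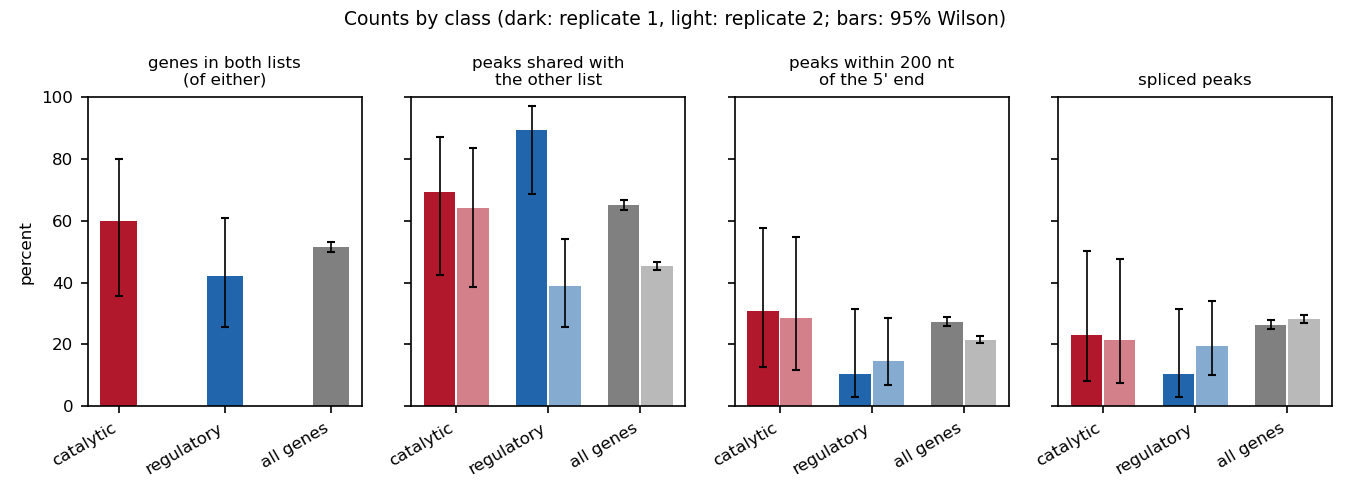
Percent of genes in both lists, of peaks shared with the other list, of peaks within 200 nt of the 5′ end and of spliced peaks, for catalytic genes (red), regulatory genes (blue) and all genes (grey). Dark bars are replicate 1 and light bars replicate 2, except in the first panel, which has 1 bar per group, and error bars are 95% Wilson intervals; catalytic bars stand above regulatory bars in each panel except for shared peaks of replicate 1.

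Spliced peaks, which join more than 1 genomic block, made up 5 of 32 phosphatase peaks in replicate 1 (15.6%, 6.86 to 31.8%) and 11 of 55 in replicate 2 (20%, 11.6 to 32.4%), against 26.4% and 28.2% of all peaks. They were 3 of 13 and 3 of 14 catalytic peaks and 2 of 19 and 8 of 41 regulatory peaks. PPP3CB, PPP4C, PPP1R12C and PPP6R1 had a spliced peak in both lists. Genes with more than 1 peak were 1 of 12 catalytic and 5 of 12 regulatory genes in replicate 1, and 2 of 12 and 10 of 25 in replicate 2. Over all genes these shares were 23.9% and 30.2%. The largest number in a phosphatase gene was 4, in PPP1R9B of replicate 2.

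Other genes of phosphatase biology, outside the naming rule, were also counted. This list of 57 held PP2A and PP1 partners, the striatins, PHLPP and CTD phosphatases and calcineurin inhibitors. Of these 57, 22 had a peak in either list, against 18.7% of all protein-coding genes. Of the 22, 14 had peaks in both lists (63.6%, 43.0 to 80.3%), against the 51.7% of all genes. A shared peak was found in 12 of the 22, against 45.3% of all genes with a peak in either list. STRN4 and STRN3, striatin subunits that couple PP2A to kinases in the STRIPAK complex, had folds of 20.4 and 12.3 and of 5.83 and 6.93 in replicates 1 and 2. The small CTD phosphatases CTDSP2 (8.64 and 10.2) and CTDSP1 (1.41 and 2.56) and the nuclear envelope phosphatase CTDNEP1 (3.36 and 2.38) were in both. So were the mitochondrial phosphatase PGAM5 (8.48 and 6.78), the AKT phosphatase PHLPP1 (4.8 and 3.05) and the PP1-binding actin regulator PHACTR4 (4.15 and 4.52). ANP32A (2.15 and 2.05) and BOD1 (2.02 and 2.18), both linked to inhibition of PP2A, had low and even folds. The anchoring protein AKAP1 (2.85 and 2.56) and the calcineurin-binding CABIN1 (1.81 and 2.42) completed the 12.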

How the data were processed

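Per the submitters' processing notes, STAR and the build GRCh38 were used, with no version or role. The peak caller is not given in the sources used here. Per the file headers, each deposited list gives a peak's blocks, p-value, log10 p and log10 FDR (used as scores) and fold enrichment, a ratio by the authors whose scaling is not named. Rows were selected by gene name, and blocks were compared within gene and strand. Shared peaks overlapped over 50% or more of the shorter, and several peaks of a list could share 1 peak of the other. For comparing folds they were matched 1 to 1 by largest overlap. Position is the genomic distance, introns included, from the midpoint along the blocks to the ends of the RefSeq gene span (GRCh38.p14). Exon and UTR models were not used. 32 of 32 and 55 of 55 phosphatase peaks were placed. Every such gene with a peak is named. The members, lists and choices were made with earlier results of these data known. Wilson intervals (95%) cover counting error only, and no test was run. The overlap code was checked on simulated data. The software was Python 3.11.15 with scipy 1.17.1, pandas 2.3.3, numpy 2.4.6 and, for plots, matplotlib 3.10.9.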

Additional observations from a re-analysis of the deposited data

How the results depend on the processing

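Phosphatase genes in both lists were 48.8% by name and 22.0% with 80% reciprocal overlap, and shared peaks of replicate 1 were 81.2% and 31.2%; fewer pass by construction. The 5′-end share was 18.5%, and 3.38% within 100 nt, 45.7% within 500 nt, 17.3% for peaks in the smaller-p 50% of a list and 25.2% from the nearest listed start, an alternative added after seeing the data. It ranged from 18.2 to 18.8% without one replicate. The catalytic minus regulatory median fold was -0.12. It was -0.955 with 1 peak per gene, and ranged from -0.35 to 0.105 without one replicate, reversing in replicate 2 alone; the cause was not tested. Spliced peaks were 17.8%, 21.6% for the smaller-p peaks and 15.6 to 20% without one replicate. The other alternatives moved a value by less than the spread between lists or stayed within its interval. No paired analysis was possible because the input samples have no file here. Unknown read depth limits which peaks could be called.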

Other observations

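The commonest fold was 7.42 in replicate 1 (107 peaks) and 6.33 in replicate 2 (196 peaks). In replicate 1 it is the fold of PPP1R12C at its 5′ peak and of PPP4R3A. In replicate 2 the fold of PPP4R3A at the 5′ end is 6.33, and 6 further phosphatase peaks have, within rounding, 0.5, 1.5 or 2 times that value. They are 2 peaks of PPP1R9B and 1 of PPP6R1 (3.16), those of PPP1R3E and PPP2R5C (9.49), and that of PPP2CB (12.7). In all, 2 of 32 and 7 of 55 phosphatase peaks had the commonest fold or 0.5, 1.5, 2 or 3 times it, against 7.39% and 9.12% of all peaks.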
